A study of Mus musculus with 16 samples.

Results

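The genes described are those of the ID proteins (*Id1*, *Id2* and *Id3*) and of the E proteins (*Tcf3*, *Tcf4* and *Tcf12*), taken by gene symbol from the count table. These are 6 of the 54532 genes listed there, of which 28205 had a count in at least 1 library. RNA came from CD8+ T cells of C57BL/6J mouse spleens, isolated as naive cells and activated repeatedly in culture over 4 days with anti-CD3/CD28 beads and a low dose of IL-2 (85 U/ml). This procedure yields antigen-experienced cells that keep TCF1, a transcription factor of stem-like T cells. The cells spent 1 h with 100 ng/ml prostaglandin E2 (PGE2) or without it, and then 4 h either in IL-2 alone (85 U/ml) or in IL-2 with anti-CD3/CD28 beads at 1 bead per cell. Whether PGE2 was removed before these 4 h is not stated in the authors' methods. Cells in IL-2 alone are called unstimulated here and cells with beads stimulated, so that the cytokine was shared by all groups. Each of the 4 groups (unstimulated untreated, unstimulated PGE2, stimulated untreated, stimulated PGE2) had 4 replicates. The labels do not say what cultures with the same number share, and if these are not separate cultures, p-values measure only the spread between these samples, which may be technical.

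E proteins are helix-loop-helix transcription factors that bind E-box DNA motifs as dimers. ID proteins have the dimerization helices but no DNA-binding region, so that an E protein paired with an ID protein cannot bind DNA. In CD8+ T cells ID2 is known for its role in effector cells and ID3 for marking naive, memory-precursor and stem-like cells. *Tcf3* encodes E2A, *Tcf12* encodes HEB and *Tcf4* encodes E2-2, and none of them is TCF1, which *Tcf7* encodes. PGE2 is known to act on T cells through receptors that raise cAMP.

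Depth lay between 22678254 and 42950763 counts per library. Levels of a gene between libraries are given as CPM, counts scaled to library size with TMM factors, and levels between genes as FPKM, which divides by gene length. The 7 CD8+ T cell markers were all present, with summed levels of 2853 to 4836 CPM, whereas *Cd4* did not exceed 1.87 CPM. Of the other CD4+ T cell markers *Zbtb7b* reached 34.4 and *Foxp3* 9.07 CPM. *Ncr1* of NK cells and *Siglech* of plasmacytoid dendritic cells were at 0 in all 16 libraries, but other genes of these marker lists were not (*Il1rl1* up to 3.27 and *Klre1* up to 0.866 CPM; *Irf8* 53.7 to 1550 and *Pacsin1* 21.6 to 35.6 CPM). All 6 genes passed the filter on low counts in every comparison. *Id1* rested on few reads, with 6 to 94 counts per library, and *Tcf4* on 40 to 146. *Id4*, the remaining ID gene, had 1 count over all 16 libraries and was not tested.

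RefSeq promoter windows, which run 250 bases before to 50 bases after a start site, matched 4 of the 6 genes (*Id2*, *Id3*, *Tcf3* and *Tcf12*; *Id1* and *Tcf4* were not matched). Stretches of them on GRCm38.p6 are shown because these genes are among those with the responses described next, and because E-boxes are the sites that E proteins bind. For *Id2*, *Tcf3* and *Tcf12* the stretch runs up to the first annotated exon base. The *Id3* window lies within exons, and the 30 bases shown were chosen around the half-site defined below. They are written in the direction of transcription, with an E-box (CANNTG, which covers both strands) or a half-site of the cAMP response element (TGACG, or CGTCA on the other strand) in capitals. The *Id2* stretch is chr12:25096254-25096342 (minus strand, positions -250 to -162 from the start), that of *Id3* is chr4:136143640-136143669 (plus strand, -182 to -153), that of *Tcf3* is chr10:80433648-80433885 (minus strand, -250 to -13) and that of *Tcf12* is chr9:72111872-72112069 (minus strand, -250 to -53).
Id2: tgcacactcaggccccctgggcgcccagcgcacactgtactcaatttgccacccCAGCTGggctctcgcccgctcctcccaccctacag
Id3: cgctgtcctcggCGTCAgaccagcctaagg
Tcf3: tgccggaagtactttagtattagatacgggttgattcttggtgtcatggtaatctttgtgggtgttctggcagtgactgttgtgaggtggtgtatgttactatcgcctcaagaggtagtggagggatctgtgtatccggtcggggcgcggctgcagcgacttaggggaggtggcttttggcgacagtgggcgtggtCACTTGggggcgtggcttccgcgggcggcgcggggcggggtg
Tcf12: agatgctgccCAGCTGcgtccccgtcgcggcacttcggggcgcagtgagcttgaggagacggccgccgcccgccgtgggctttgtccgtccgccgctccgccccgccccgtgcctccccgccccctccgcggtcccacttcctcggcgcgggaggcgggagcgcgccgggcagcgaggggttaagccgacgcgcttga

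The E-box began at position -196 in *Id2*, -54 in *Tcf3* and -240 in *Tcf12*, and 66.2% of 32851 RefSeq windows of 250 bases before a start held one. No E-box was in the 250 bases before the *Id3* start, and the half-site there began at position -170 on the minus strand. That half-site was present in 17.8% of all windows. The whole element TGACGTCA, which contains the half-site, was in 1.55% of windows, the EGR motif GCGNGGGCG was in 4.7%, and neither was found before these 4 genes' starts. For *Tcf12* this covers the 3 RefSeq start sites, and the second of them also held an E-box, at -149. In GENCODE M21 the *Id3* and *Id2* genes start further upstream. The stretch shown for *Id3* therefore lies within an annotated exon, and that for *Id2* lies within the annotated gene but outside its exons. These are matches of letters and not measurements of binding.

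On GRCm38, the build the authors used, *Id1* (ENSMUSG00000042745) lies at chr2:152736251-152737410 on the plus strand. *Id2* (ENSMUSG00000020644) lies at chr12:25093799-25097140 on the minus strand. *Id3* (ENSMUSG00000007872) lies at chr4:136143497-136145755 on the plus strand. Of the E protein genes, *Tcf3* (ENSMUSG00000020167) lies at chr10:80409514-80433647 on the minus strand, and *Tcf12* (ENSMUSG00000032228) at chr9:71842688-72111871 on the minus strand. *Tcf4* (ENSMUSG00000053477) lies at chr18:69343356-69689079 on the plus strand. No other annotated gene shares exon bases with any of them.

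Per gene length, *Tcf3* was the most abundant of the 6 genes in unstimulated untreated cells, at 44.5 FPKM. *Id3* followed at 30.6 and *Id2* at 29.5 FPKM, and the libraries of these neighbours overlapped. *Tcf12* was at 8.36 FPKM, *Id1* at 0.410 and *Tcf4* at 0.0870. With PGE2 the order in unstimulated cells was *Tcf3* (39.0 FPKM), *Id2* (25.8), *Id3* (14.5) and *Tcf12* (10.3), and here *Id3* and *Tcf12* overlapped. In stimulated untreated cells *Id2* came first at 58.6 FPKM, followed without overlap by *Id3* at 39.8 and *Tcf3* at 26.9. In stimulated PGE2 cells *Id3*, at 15.3 FPKM, ranked below *Tcf3* at 26.0, with *Id2* still first at 53.2. *Tcf12* was at 6.33 FPKM in stimulated untreated and at 6.84 in stimulated PGE2 cells, and *Id1* (1.4997 and 0.888) and *Tcf4* (0.0681 and 0.0816) came last in both.

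This order depends on the length used. The length behind FPKM is that of all exons of a gene together, which is 6.88 times the median coding transcript of *Tcf12* and 14.9 times that of *Tcf4*, against 1.11 to 1.92 times for the other 4 genes. Divided by the median coding transcript instead (counts per kilobase, scaled to depth as FPKM is), *Tcf3* (69.4), *Tcf12* (62.8) and *Id2* (61.9) overlapped in unstimulated untreated cells, *Id3* was at 46.7, and *Tcf4* (1.42) stood above *Id1* (0.493). In the other 3 groups *Tcf12* was then above *Tcf3* in the mean. It was at 78.5 against 61.4 in unstimulated PGE2 cells, without overlap and the highest of the 6 genes, at 42.5 against 37.6 in stimulated untreated cells, with overlap, and at 48.0 against 38.1 in stimulated PGE2 cells, without overlap. *Id2* remained first in both stimulated groups. Which transcripts these cells used cannot be read from counts per gene.

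**Figure D1:**
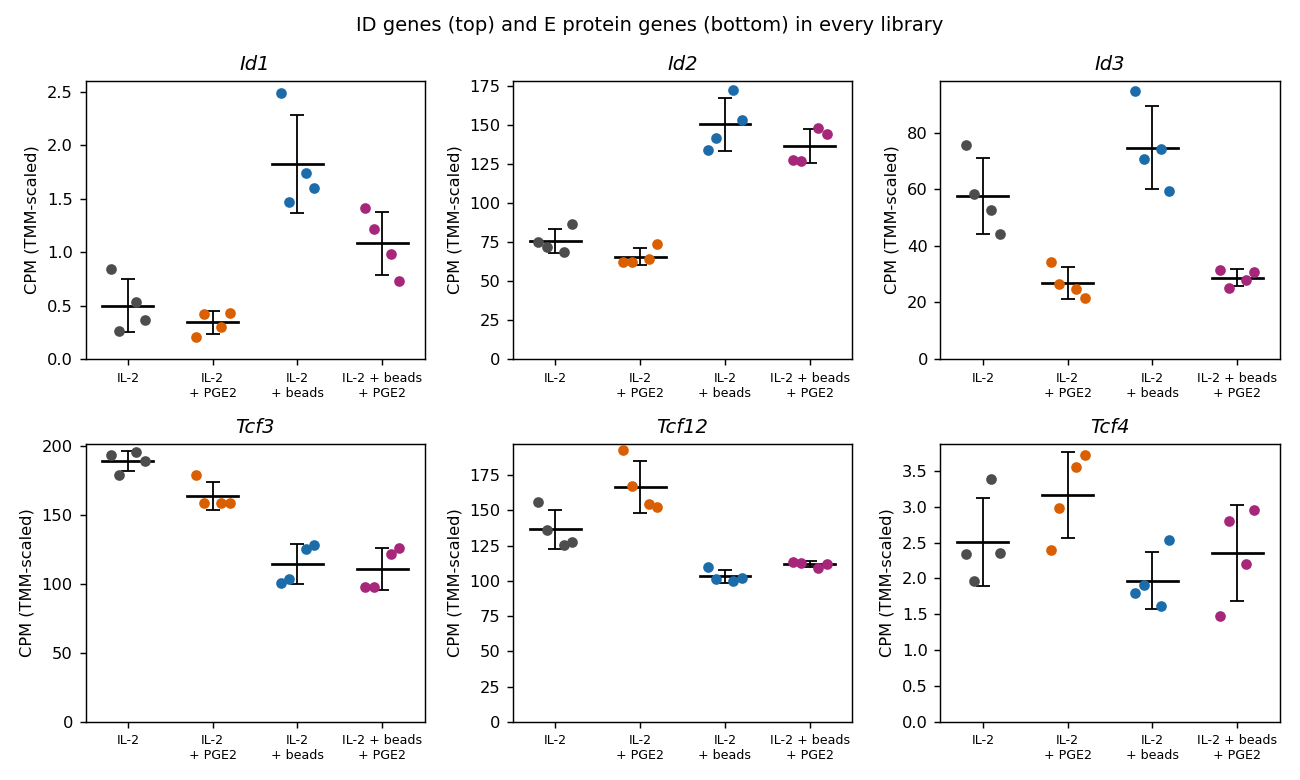
TMM-scaled CPM of the 6 genes in each of the 16 libraries (points), with the mean (line) and SD (bars) of the 4 replicates of each group; every vertical axis starts at 0. PGE2 libraries of *Id3* (21.5 to 34.5 CPM) lie below all untreated ones (44.1 to 94.7 CPM), and stimulated libraries of *Id2* (126.8 to 172.5 CPM) above all unstimulated ones.

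The comparison of stimulated PGE2 with stimulated untreated cells asked how levels in cells with beads differed with PGE2, given from 1 h before the beads. In the fit without a replicate block *Id3* was the only gene of the 6 that passed, and it fell to 0.387 times its untreated level. In stimulated untreated cells *Id3* was at 94.7, 70.6, 74.2 and 59.6 CPM in replicates 1 to 4, and in stimulated PGE2 cells at 31.4, 25.0, 28.0 and 30.8 CPM. The groups did not overlap, and the lowest untreated library (59.6 CPM) stood above the highest PGE2 library (31.4 CPM). The means were 74.7 ± 14.7 and 28.8 ± 2.94 CPM (SD, n = 4 each), and the log2 fold change was -1.37 (SE 0.131 in edgeR, adjusted p = 0.000324). *Id3* was thereby a differentially expressed gene (DEG, an adjusted p below 0.05 and a change of at least 2-fold), as were 1.75% of the 13922 genes tested, 0.546% in the downward direction. By size it ranked 46th among the falls. Beside this result, the 7 CD8+ T cell markers summed to 3127 to 3337 CPM without and 2853 to 3074 CPM with PGE2, and the 7 markers of NK cells and innate lymphoid cells to 2.10 to 3.93 and 1.16 to 1.67 CPM, with *Ncr1* at 0 throughout. Their part in it was not tested. Taken by replicate number, the PGE2 library held 33.2%, 35.4%, 37.7% and 51.6% of the *Id3* level of its untreated counterpart.

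The other ID genes moved less. *Id1* was at 2.49, 1.47, 1.74 and 1.61 CPM in stimulated untreated cells and at 1.41, 1.21, 0.981 and 0.726 CPM with PGE2. Its groups did not overlap either, as was the case for 8.32% of genes in this direction, but its log2 fold change of -0.75 (SE 0.256) did not pass (edgeR adjusted p = 0.0946). *Id2* was at 133.7, 141.7, 172.5 and 153.5 CPM without and at 127.4, 126.8, 148.3 and 143.9 CPM with PGE2. These ranges overlapped, and the log2 fold change of -0.13 had a 95% interval from -0.34 to 0.079 (edgeR adjusted p = 0.386).

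Without a replicate block, no E protein gene passed in stimulated cells with edgeR or DESeq2, and none had an unadjusted edgeR p below 0.05. *Tcf12* passed in the edgeR fit with the block (adjusted p = 0.0279). *Tcf3* gave 100.8, 103.2, 124.9 and 128.3 CPM without PGE2 and 97.8, 97.7, 121.9 and 126.0 CPM with it. The log2 fold change was -0.038, with an interval from -0.30 to 0.22 (edgeR adjusted p = 0.859), and its sign turned when any of 4 libraries was left out (0.0098 without untreated replicate 3, 0.023 without untreated replicate 4, 0.027 without PGE2 replicate 1 and 0.016 without PGE2 replicate 2). Taken by replicate number, *Tcf3* was lower with PGE2 in 4 of 4 pairs (ratios 0.947 to 0.982), and it did not pass with the replicate block. *Tcf12* was at 109.9, 101.5, 99.6 and 102.2 CPM without and at 113.7, 112.6, 109.1 and 111.7 CPM with PGE2. Its log2 fold change was 0.12, with an interval from -0.0024 to 0.24 (edgeR adjusted p = 0.192). *Tcf4* ranged from 1.62 to 2.53 CPM without and from 1.48 to 2.95 CPM with PGE2, and its log2 fold change of 0.26 had an interval from -0.28 to 0.81 (edgeR adjusted p = 0.504).

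In this comparison 1 of the 6 genes passed, beside 9.84% of all genes tested. Libraries of the same replicate number deviated together (correlations of 0.190 to 0.423, against -0.385 to 0.250 between different numbers). PGE2 replicate 2 was nearer to untreated replicate 1 (0.247) than to untreated replicate 2 (0.190). A fit that also held the replicate number as a block passed 4 of the 6 genes beside 39.8% of all genes. *Id3* was joined there by *Id1* (adjusted p = 0.0139), *Id2* (adjusted p = 0.0365) and *Tcf12* (adjusted p = 0.0279). Their sizes were close to those without the block. By number, *Id1* and *Id2* were lower and *Tcf12* higher with PGE2 in 4 of 4 pairs, and the pair ratios were 0.860 to 0.953 for *Id2* and 1.03 to 1.11 for *Tcf12*.

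In unstimulated cells, which had IL-2 but no beads, PGE2 was followed by a fall of *Id3* as well, to 0.472 times the untreated level. *Id3* was at 75.6, 58.4, 52.7 and 44.1 CPM in unstimulated untreated cells and at 34.5, 26.7, 24.9 and 21.5 CPM with PGE2. The groups did not overlap (16.8% of all genes were lower without overlap), and libraries of the same number ranked alike, with pair ratios from 0.456 to 0.488. The means were 57.7 ± 13.3 and 26.9 ± 5.49 CPM (SD, n = 4 each), with a log2 fold change of -1.08 (SE 0.160 in edgeR, adjusted p = 0.000476). DEGs made up 3.38% of the 14505 genes tested, 1.92% in the downward direction, and *Id3* had the 244th largest fall. It passed without any single library, but missed 2-fold without untreated replicate 1 (log2 fold change -0.93) and without PGE2 replicate 4 (-0.99).

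Both abundant E protein genes also changed in unstimulated cells, in opposite directions and by less than *Id3*. *Tcf12* was at 155.9, 136.4, 125.7 and 127.8 CPM without and at 192.6, 167.1, 154.7 and 152.7 CPM with PGE2. Replicate 1 was the highest in both groups, and the ranges overlapped because of it. *Tcf12* rose by 0.31 on the log2 scale (SE 0.0811 in edgeR, adjusted p = 0.0146), with pair ratios of 1.19 to 1.24. *Tcf3* was at 193.1, 178.6, 195.5 and 189.0 CPM without and at 178.9, 158.5, 158.7 and 158.5 CPM with PGE2. Its PGE2 replicate 1 stood above the other 3 and inside the untreated range. *Tcf3* fell by 0.19 on the log2 scale (SE 0.0551 in edgeR, adjusted p = 0.0243), but this call was lost without untreated replicate 1 (adjusted p = 0.0509), 2 (0.0501) or 3 (0.0664) and without PGE2 replicate 2 (0.122), 3 (0.0640) or 4 (0.0569). By number, *Tcf3* was lower with PGE2 in 4 of 4 pairs (ratios 0.811 to 0.926). It also passed with the replicate block, beside 47.8% of all genes.

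*Id2* was at 75.2, 72.1, 68.7 and 86.2 CPM in unstimulated untreated cells and at 62.3, 61.9, 64.1 and 73.5 CPM with PGE2. The log2 fold change of -0.18 (SE 0.0830) did not pass (edgeR adjusted p = 0.123), although the level was lower in 4 of 4 pairs. It passed with the replicate block (adjusted p = 0.00139) and without PGE2 replicate 4 (adjusted p = 0.0391). *Id1* was between 0.266 and 0.838 CPM without and between 0.211 and 0.433 CPM with PGE2, from 6 to 19 counts per library, and *Tcf4* between 1.96 and 3.38 and between 2.39 and 3.72 CPM. Their log2 fold changes were -0.46 (interval -1.34 to 0.41) and 0.36 (interval -0.11 to 0.82), with edgeR adjusted p = 0.435 and 0.246. In total, 3 of the 6 genes passed in unstimulated cells, beside 28.4% of genes tested.

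**Figure D2:**
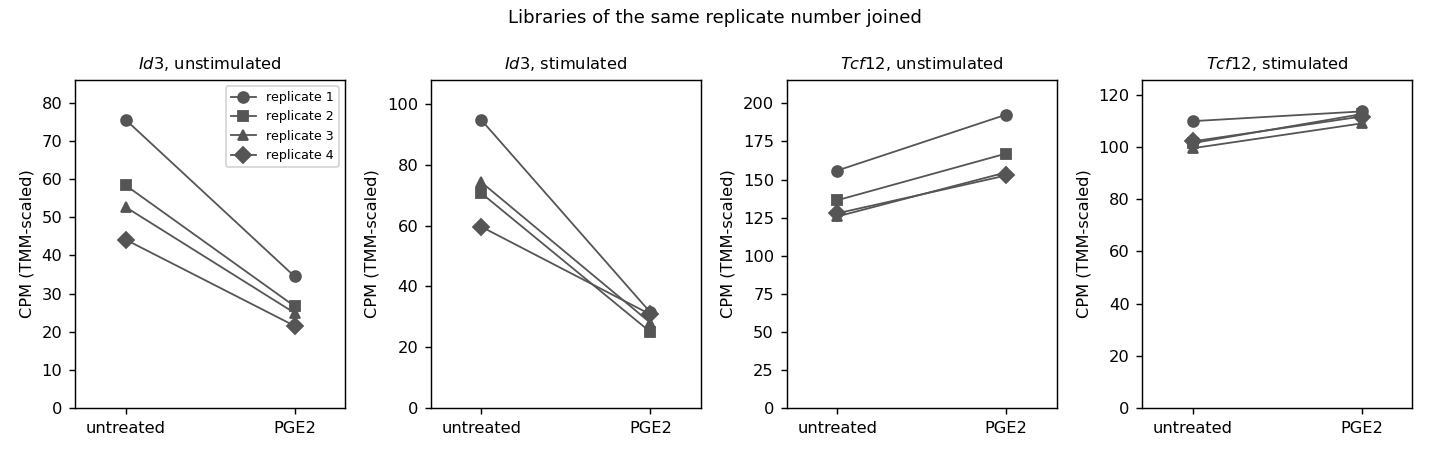
CPM of *Id3* and *Tcf12* in untreated and PGE2 libraries, with libraries of the same replicate number joined (4 lines per panel, axes from 0). *Id3* falls along all 8 lines, to between 0.332 and 0.516 times in stimulated and 0.456 and 0.488 times in unstimulated cells; *Tcf12* rises along all 8, by 1.03 to 1.11 times and 1.19 to 1.24 times.

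Stimulation raised *Id1* and *Id2* and lowered *Tcf3* and *Tcf12*. Without PGE2, *Id2* rose from 75.6 ± 7.60 to 150.4 ± 16.9 CPM (SD, n = 4 each), by 0.98 on the log2 scale (SE 0.0899 in edgeR, adjusted p = 9.92e-07). The highest unstimulated library held 86.2 CPM and the lowest stimulated library 133.7 CPM. *Id1* rose from 0.500 ± 0.251 to 1.82 ± 0.455 CPM, by 1.90 on the log2 scale (SE 0.331 in edgeR, adjusted p = 0.000236), and it remained the least abundant ID gene. *Id3* was at 57.7 ± 13.3 CPM in unstimulated and 74.7 ± 14.7 CPM in stimulated cells, and its log2 fold change of 0.37 (SE 0.163) did not pass (edgeR adjusted p = 0.0623). Libraries of the same number deviated together here too (correlations of 0.112 or more, against at most 0.125 between different numbers). *Id3* was higher with stimulation in 4 of 4 pairs, by 1.21 to 1.41 times, and passed with the replicate block (adjusted p = 0.000195, beside 72.3% of all genes), without unstimulated replicate 1 (adjusted p = 0.00774) and without stimulated replicate 4 (adjusted p = 0.0175).

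*Tcf3* fell from 189.0 ± 7.46 to 114.3 ± 14.3 CPM with stimulation (edgeR log2 fold change -0.74 with SE 0.0825, adjusted p = 5.12e-06), and *Tcf12* from 136.4 ± 13.8 to 103.3 ± 4.56 CPM (edgeR log2 fold change -0.41 with SE 0.0784, adjusted p = 0.000462). For neither gene did the groups overlap, nor did they for *Id1* and *Id2*, as was the case for 61.6% of all genes. *Tcf4* was at 2.51 ± 0.608 and 1.96 ± 0.399 CPM, with a log2 fold change of -0.38 (edgeR adjusted p = 0.147). Stimulation altered most of the transcriptome. Of the 14205 genes tested 66.5% passed, so that the 4 of 6 that passed here are close to the background. Of all genes 23.2% were DEGs. *Id1* was the only DEG of the 6 genes, and 2 of the 6 were DEGs without unstimulated replicate 4 or without stimulated replicate 1 or 2. As a measured fact beside the falls, 8 B cell markers, a cell type that expresses E proteins, summed to 12.2 to 22.5 CPM in unstimulated and to 4.92 to 13.1 CPM in stimulated untreated libraries, with *Cd79b* the highest (up to 15.1 CPM). *Ms4a1* was at 0 in 8 of the 16 libraries. Lists of other cells that can express *Id2* moved upward. Summed levels in unstimulated and stimulated untreated libraries were 0.699 to 1.06 and 2.10 to 3.93 CPM for 7 markers of NK cells and innate lymphoid cells, 2.82 to 6.20 and 11.4 to 16.8 CPM for 6 of conventional dendritic cells, and 2.96 to 5.29 and 7.75 to 11.3 CPM for 8 of myeloid cells. The 6 markers of plasmacytoid dendritic cells, which express *Tcf4*, summed to 100.3 to 202.0 and 1239 to 1576 CPM, most of it *Irf8*, which activated T cells express too. The part of these lists in the results was not tested. In RNA from whole cultures fewer cells of a type and less RNA per cell cannot be told apart.

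In PGE2-treated cells stimulation changed the same 4 genes in the same directions. *Id2* rose from 65.5 ± 5.44 to 136.6 ± 11.1 CPM (edgeR log2 fold change 1.07 with SE 0.0835, adjusted p = 2.44e-06) and *Id1* from 0.342 ± 0.106 to 1.08 ± 0.296 CPM (edgeR log2 fold change 1.65 with SE 0.318, adjusted p = 0.000904). *Tcf3* fell from 163.6 ± 10.2 to 110.9 ± 15.2 CPM (edgeR log2 fold change -0.55 with SE 0.0903, adjusted p = 0.000307). *Tcf12* fell from 166.8 ± 18.4 to 111.8 ± 1.97 CPM (edgeR log2 fold change -0.56 with SE 0.0761, adjusted p = 8.05e-05). None of these 4 genes overlapped between groups, as was the case for 60.2% of all genes. *Id3* was at 26.9 ± 5.49 and 28.8 ± 2.94 CPM, with a log2 fold change of 0.12 and an interval from -0.17 to 0.41 (edgeR adjusted p = 0.447; -0.0054 with upper-quartile factors, which moved the median of all genes by -0.13), and by number it was higher in 2 pairs and lower in 2. *Tcf4* had a log2 fold change of -0.43 (edgeR adjusted p = 0.131). All genes tested numbered 14507, of which 64.2% passed and 22.1% were DEGs. *Id1* and *Id2* were DEGs, and 1 of the 6 genes was without stimulated replicate 3. The B cell markers summed to 10.2 to 18.2 CPM in unstimulated and 4.60 to 10.9 CPM in stimulated PGE2 libraries. In the same order the markers of conventional dendritic cells summed to 3.80 to 6.44 and 15.9 to 18.1 CPM, those of myeloid cells to 4.15 to 7.92 and 8.59 to 13.1 CPM, those of plasmacytoid dendritic cells to 82.4 to 234.7 and 853.1 to 1426 CPM, and those of NK cells and innate lymphoid cells to 0.799 to 1.15 and 1.16 to 1.67 CPM. Their part in the results was not tested.

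**Figure D3:**
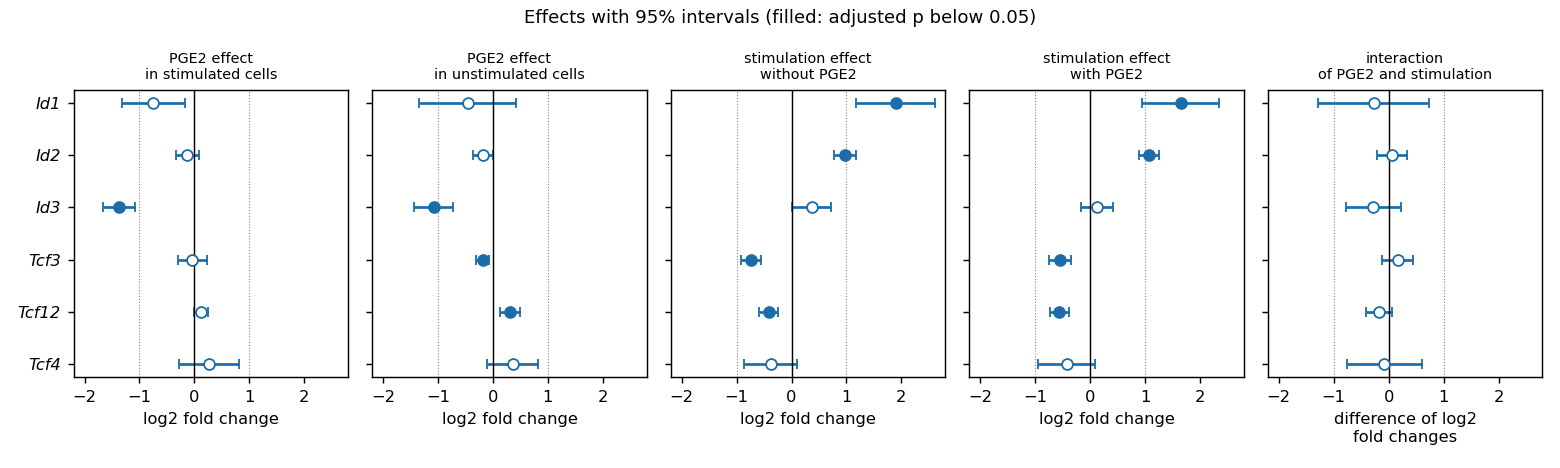
Log2 fold changes of the 6 genes with 95% intervals in the 4 pairwise comparisons and, in the last panel, the difference between the PGE2 effects in stimulated and unstimulated cells; filled points have an adjusted p below 0.05, and dotted lines mark a 2-fold change. *Id3* passes in both PGE2 panels (-1.37 and -1.08), *Id1*, *Id2*, *Tcf3* and *Tcf12* pass in both stimulation panels, and no point is filled for the interaction.

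Whether the PGE2 effect differed between stimulated and unstimulated cells was tested as an interaction over all 16 libraries. None of the 6 genes passed (edgeR adjusted p = 0.736 to 0.990), beside 0.749% of 15096 genes. No member was below an unadjusted p of 0.05 either, against 1415 of all genes (9.37%). The *Id3* interaction was -0.28 on the log2 scale, with an interval from -0.77 to 0.22 that holds both a larger and a smaller fall in stimulated cells. For *Tcf12* and *Tcf3*, which passed for PGE2 in unstimulated cells only, the interactions were -0.18 (interval -0.41 to 0.060) and 0.16 (interval -0.12 to 0.45), so that a difference between the settings was not shown. DESeq2 and every other alternative also passed none of the 6.

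The balance of the families was described by the summed FPKM of the 3 ID genes over that of the 3 E protein genes, without a test. This ratio was 1.27, 1.18, 1.02 and 1.09 in unstimulated untreated libraries and 0.792, 0.811, 0.820 and 0.864 in unstimulated PGE2 libraries. It was 3.42, 3.07, 3.04 and 2.54 in stimulated untreated libraries and 2.25, 2.12, 2.07 and 2.00 in stimulated PGE2 libraries. No groups overlapped, and the ratio was lowest in unstimulated PGE2 cells (0.822 ± 0.0305, SD, n = 4) and highest in stimulated untreated cells (3.02 ± 0.363). The ID sum was 60.5, 40.6, 99.9 and 69.3 FPKM in the order unstimulated untreated, unstimulated PGE2, stimulated untreated and stimulated PGE2, and the E protein sum 52.9, 49.5, 33.3 and 33.0 FPKM. Between PGE2 and untreated libraries the ID sums did not overlap and the E protein sums did, in both settings. With stimulation the ID sums were higher and the E protein sums lower without overlap, both without and with PGE2. The ratio is made of RNA of genes and does not measure free protein. Its value depended on the length used (3.02 became 2.05 with median coding transcripts and 1.04 without length), while the order of the 4 groups did not.

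The composition of the sums was also described by FPKM. *Id3* made up 50.2% ± 6.85 of the ID sum in unstimulated untreated, 35.5% ± 6.01 in unstimulated PGE2, 39.6% ± 6.14 in stimulated untreated and 22.0% ± 2.00 in stimulated PGE2 cells (SD, n = 4). The ratio of *Id3* to *Id2* was accordingly 1.05 ± 0.276, 0.567 ± 0.147, 0.689 ± 0.193 and 0.288 ± 0.0348. Its stimulated PGE2 libraries (0.257 to 0.336) lay below all other libraries, the lowest of which had 0.398. *Tcf3* held 78.8% to 84.1% of the E protein sum in the group means and *Tcf12* 15.8% to 20.9%. With median coding transcripts these shares became 43.4% to 52.0% and 47.0% to 55.3%, and the share of *Tcf12* was the larger in all groups but unstimulated untreated cells.

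**Figure D4:**
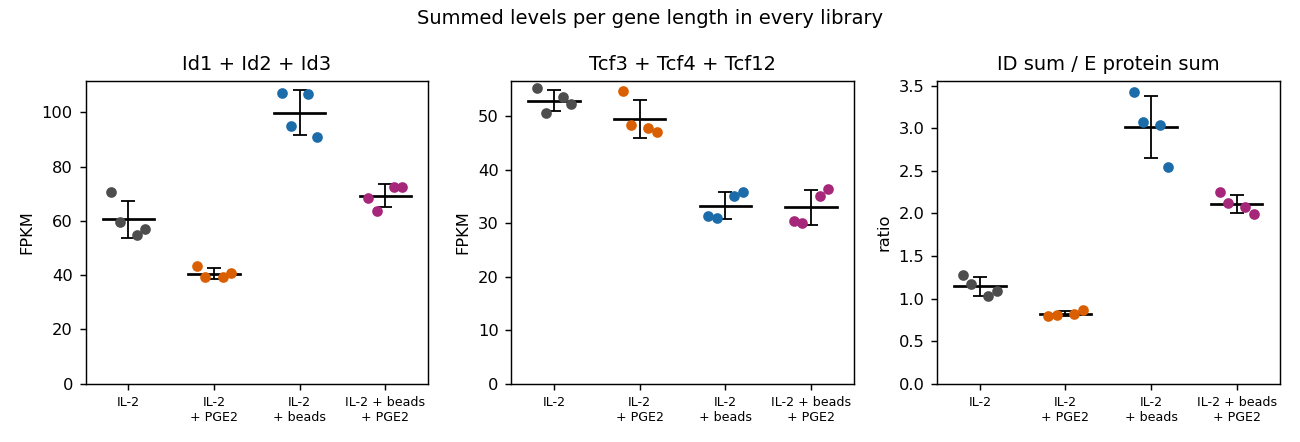
Summed FPKM of *Id1*, *Id2* and *Id3* (left), of *Tcf3*, *Tcf4* and *Tcf12* (middle) and their ratio (right, no unit) in each library, with mean and SD of 4 replicates and axes from 0. The ratio is 1.02 to 1.27, 0.792 to 0.864, 2.54 to 3.42 and 2.00 to 2.25 in the 4 groups from left to right, without overlap.

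The lists of genes around these families, 6 in number and written by hand with earlier results of these data known, were then examined in the same fits. Their shares beside those of all genes are therefore a description and not a test. Some genes are in more than 1 list, among them 3 of the 16 on the ID3 side. Factors that upstream signals use to act on *Id* genes made up the first list. In stimulated cells 4 of the 20 tested genes of this list rose with PGE2 and 3 fell, beside 9.84% of all genes, and the list median was 0.058 on the log2 scale (all genes -0.0061). *Egr2*, an early growth response factor induced by T cell receptor signals, fell from 66.3 ± 18.5 to 32.0 ± 13.0 CPM (log2 fold change -1.04, edgeR adjusted p = 0.0439). That call was lost in 7 of the 8 fits that left out 1 library, all but the fit without PGE2 replicate 1, and the list's falls numbered 1 without untreated replicate 1 or 2 or without PGE2 replicate 3. With the replicate block, which passed 39.8% of all genes, *Egr2* passed (edgeR adjusted p = 1.42e-05), and the list had 9 rises and 5 falls. In unstimulated cells 6 of 21 rose and 3 fell (median 0.17, all genes -0.0010), beside 28.4% of all genes passing, and 5 fell without PGE2 replicate 4. With the block, which passed 47.8% of all genes there, 12 rose and 6 fell. *Egr3* fell from 23.2 ± 7.29 to 10.9 ± 6.95 CPM (log2 fold change -1.07, edgeR adjusted p = 0.0408), a call lost in 7 of the 8 fits that left out 1 library, all but the fit without PGE2 replicate 4. It passed with the block (edgeR adjusted p = 2.08e-07). *Egr2* was at 5.14 ± 1.11 and 3.15 ± 1.42 CPM there and did not pass (adjusted p = 0.109). *Egr1*, named after its values were seen, was lower in the mean with PGE2 in both settings. It was at 291.1 ± 22.5 CPM in stimulated untreated and 165.6 ± 38.7 CPM in stimulated PGE2 cells. In unstimulated cells it was at 32.2 ± 6.27 CPM without and 15.96 ± 3.68 CPM with PGE2.

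Stimulation without PGE2 raised 9 of 20 genes of this list and lowered 7 (median 0.16, all genes -0.031), beside 66.5% of all genes passing in either direction. *Egr2* rose by 3.69 and *Egr1* by 3.17 on the log2 scale, while *Smad7*, an inhibitor of TGF-beta signals, fell by 1.49 and the receptor gene *Tgfbr2* fell by 1.23. With PGE2 7 of 21 rose and 8 fell (median -0.0015, all genes 0.0022), beside 64.2% of all genes. Log2 fold changes there were 3.39 for *Egr1*, 3.36 for *Egr2*, -1.25 for *Smad7* and -1.06 for *Tgfbr2*.

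Among other factors that pair with E proteins, bind E-boxes or act in the same complexes, 3 of 14 tested genes rose with PGE2 in stimulated cells and none fell (median 0.11; 1 had an unadjusted edgeR p below 0.05 in that direction, and DESeq2 gave no fall). Of all genes 6.04% rose and 9.84% passed in either direction. *Zeb1*, a repressor that binds E-boxes, rose from 63.0 ± 4.04 to 124.3 ± 10.3 CPM (log2 fold change 0.99, edgeR adjusted p = 0.000146). The count of list rises was 1 without untreated replicate 1, 2 or 3 and without PGE2 replicate 2 or 3. With the replicate block, which passed 39.8% of all genes, there were 5 rises and 1 fall. In unstimulated cells 5 of 17 rose and 1 fell (median 0.23), beside 28.4% of all genes passing, or 10 and 2 with the block, beside 47.8%. *Zeb1* rose there from 75.9 ± 4.35 to 176.2 ± 23.6 CPM (log2 fold change 1.23, edgeR adjusted p = 5.41e-06), *Hey1*, a target of Notch signals, by 1.95 on the log2 scale, and *Cbfa2t3*, a co-repressor that can bind E proteins, fell by 1.05 from 2.34 to 1.11 CPM. *Zeb2*, the paralogue of *Zeb1* found in effector cells, did not pass with PGE2 (log2 fold change -0.084 in stimulated and 0.75 in unstimulated cells, adjusted p = 0.839 and 0.211).

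With stimulation this list moved mostly downward, with 4 rises and 9 falls of 15 without PGE2 (median -0.58) and 4 rises and 10 falls of 16 with PGE2 (median -0.51), beside 34.8% and 31.7% of all genes falling. *Zeb2* rose from 1.53 ± 0.852 to 31.6 ± 7.61 CPM without PGE2 (log2 fold change 4.32) and from 2.55 ± 1.34 to 29.6 ± 9.50 CPM with it (3.53). *Snai1*, a repressor of the Snail family, rose by 2.99 and 3.04 on the log2 scale. Log2 fold changes without and with PGE2 were -1.64 and -1.39 for *Cbfa2t3* and -0.28 and -0.49 for *Zeb1*. *Usf1*, an activator that binds E-boxes, changed by -1.25 without PGE2, and *Hey1* and *Snai3* by -1.68 and -1.36 with it.

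Of the 9 ubiquitin ligase and deubiquitinase genes that act on ID or E proteins, none passed with PGE2 in stimulated cells with edgeR or DESeq2 (median -0.076), and 1 rise and 2 falls had an unadjusted edgeR p below 0.05. With the replicate block, which passed 39.8% of all genes, 1 rose and 3 fell, and 1 rose without PGE2 replicate 1. *Usp1*, whose product stabilizes ID proteins, was at 212.0 ± 20.3 CPM without and 173.9 ± 21.5 CPM with PGE2 there (log2 fold change -0.28, edgeR adjusted p = 0.103). In unstimulated cells 1 rose and 3 fell (median -0.12), beside 28.4% of all genes passing, with 1 fall without untreated replicate 2 or 4 or PGE2 replicate 2 or 3. *Usp1* fell there from 183.6 ± 14.2 to 137.5 ± 11.7 CPM (log2 fold change -0.40, edgeR adjusted p = 0.00133). With stimulation 3 rose and 2 fell without PGE2 (median 0.14) and 4 and 2 with PGE2 (median 0.19), near the share of all genes that passed (66.5% and 64.2%). The block, which passed 72.3% of all genes there, gave 5 rises without PGE2. With PGE2, 2 rose without unstimulated replicate 3, and 1 fell without unstimulated replicate 2 or stimulated replicate 1. *Usp1* rose by 0.36 on the log2 scale in the latter (edgeR adjusted p = 0.00917), but not without unstimulated PGE2 replicate 3 (adjusted p = 0.0521).

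Among genes known to be regulated by E proteins in lymphocytes, 2 of 12 tested rose with PGE2 in stimulated cells and 1 fell (median 0.21), beside 9.84% of all genes passing. The rises were absent without untreated replicate 1, 2 or 3 or PGE2 replicate 3 and numbered 1 without PGE2 replicate 2. The replicate block, which passed 39.8% of all genes, gave 4 rises and 1 fall. In unstimulated cells 5 of 10 rose and none fell (median 0.26; no fall at an unadjusted edgeR p below 0.05 or with DESeq2), beside 12.9% of all genes rising, and 2 of 13 rose in 1 fit of all 16 samples. With stimulation 5 of 11 rose and 3 fell without PGE2 (median -0.26), and 4 rose and 2 fell with it (median -0.19), shares near the 66.5% and 64.2% of all genes that passed. The replicate block gave 4 falls with PGE2. *Socs1*, a suppressor of cytokine signalling, rose by 1.88 and 1.61 on the log2 scale and the cell cycle inhibitor gene *Cdkn1a* by 1.37 and 1.33. The chemokine receptor gene *Cxcr4* changed by -1.47 and -1.06, and *Il7r*, the interleukin-7 receptor gene, by -1.54 without PGE2.

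The next list held genes of the stem-like and memory-precursor state that ID3 marks. With PGE2 in stimulated cells 8 of 16 rose and none fell (median 0.23; 1 fall at an unadjusted edgeR p below 0.05, none with DESeq2), beside 6.04% of all genes rising. The replicate block, which passed 39.8% of all genes, gave 11 rises and 1 fall, and the fit without PGE2 replicate 1 gave 6 rises and 1 fall. *Ccr7*, a homing receptor of naive and memory cells, rose from 466.9 ± 105.0 to 1237 ± 254.2 CPM (log2 fold change 1.41, edgeR adjusted p = 0.00153), and *S1pr1*, a receptor for exit from lymphoid tissue, from 29.2 ± 4.80 to 61.9 ± 4.16 CPM (log2 fold change 1.09, edgeR adjusted p = 0.000360). *Tcf7*, the gene of TCF1, rose from 308.5 ± 16.6 to 407.0 ± 56.9 CPM (log2 fold change 0.41, edgeR adjusted p = 0.0317), a call lost without any 1 of the untreated replicates and without PGE2 replicate 3 or 4. It passed with the replicate block (edgeR adjusted p = 0.000318). The count of rises was 5 without untreated replicate 1 or 4 or PGE2 replicate 4, and 4 without untreated replicate 2 or 3 or PGE2 replicate 3. In unstimulated cells 6 of 16 rose and 2 fell (median 0.18), beside 28.4% of all genes passing in either direction, and 1 fell without untreated replicate 2. *Tcf7* was at 1175 ± 237.6 and 1187 ± 270.9 CPM (adjusted p = 0.910), and *Eomes*, a T-box factor of memory and effector cells, fell from 18.03 ± 4.87 to 8.13 ± 2.82 CPM (log2 fold change -1.13, edgeR adjusted p = 0.00495). The other fall was that of *Bcl2*, a survival factor, by 0.31 on the log2 scale, a gene named after its value was seen.

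With stimulation 11 of the 16 genes fell both without PGE2 (median -1.14) and with it (median -0.67), while 3 and 2 rose. Of all genes 34.8% and 31.7% fell, and 66.5% and 64.2% passed in either direction. The log2 fold changes were -3.10 and -2.28 for *S1pr1*, -2.63 and -1.78 for *Klf2*, a quiescence factor, and -1.94 and -1.53 for *Tcf7*. *Eomes* rose by 2.97 and 3.33. On the side of ID2, genes of the effector state gave 8 rises and 4 falls of 14 with stimulation without PGE2 (median 1.00) and 8 rises and 2 falls with it (median 1.04), beside the same shares of all genes. *Havcr2*, which encodes TIM-3, rose from 2.50 ± 1.18 to 18.5 ± 2.71 CPM without PGE2, and *Gzmb*, the cytotoxic protease granzyme B, from 410.5 ± 155.4 to 2810.0 ± 154.8 CPM with it. Each is given only where it was among the 2 largest rises of the list, which does not make its rise particular to that setting.

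PGE2 in stimulated cells was followed by 2 rises and 5 falls among these 14 effector genes (median -0.14), beside 9.84% of all genes passing. The replicate block, which passed 39.8% of all genes, gave 4 rises and 5 falls, and 3 fell without untreated replicate 2 or without PGE2 replicate 3. The falls, named after their values were seen, were those of *Itgae* (-0.93 on the log2 scale), *Gzmb* (-0.91), *Havcr2* (-0.90), *Prdm1*, a transcription factor of effector cells (-0.74), and the pore-forming protein gene *Prf1* (-0.70). The largest rise was that of *Il12rb2*, a chain of the interleukin-12 receptor, from 92.5 ± 24.8 to 261.6 ± 14.1 CPM (log2 fold change 1.51, edgeR adjusted p = 0.000723). In unstimulated cells 2 rose and 4 fell (median -0.012), beside 28.4% of all genes passing, or 6 and 6 with the replicate block, which passed 47.8%. Without 1 library, 1 rose without untreated replicate 1 or PGE2 replicate 2 or 4, and 2 fell without untreated replicate 2 or 4 or PGE2 replicate 2 or 3. *Itgae*, the integrin chain CD103, fell from 180.0 ± 10.3 to 84.4 ± 10.5 CPM (log2 fold change -1.08, edgeR adjusted p = 5.63e-06).

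**Figure D5:**
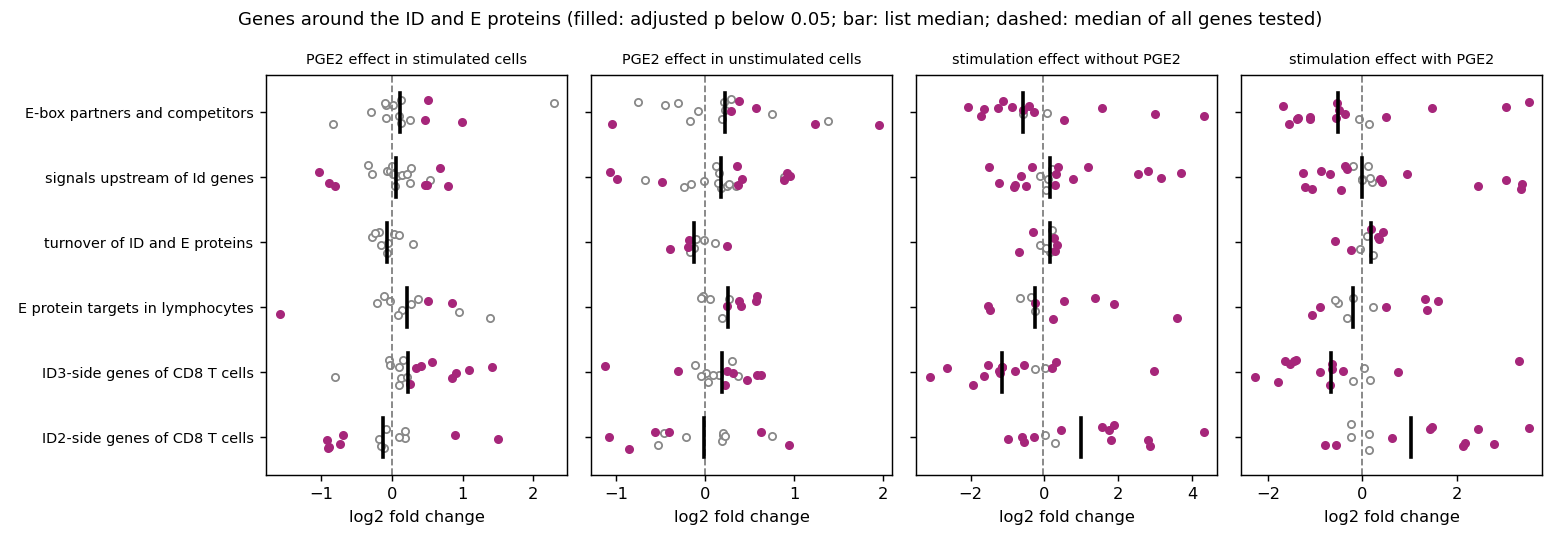
Log2 fold change of each tested gene of the 6 lists in the 4 pairwise comparisons (points; filled where the adjusted p is below 0.05), with the list median (bar) and the median of all genes tested (dashed line). For the genes of the ID3 side the median is 0.23 and 0.18 with PGE2 and -1.14 and -0.67 with stimulation.

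The 6 genes did not share 1 profile over the 16 libraries. As a description over libraries that share groups and replicate numbers, Pearson's r of log2 CPM was 0.855 between *Id1* and *Id2*, -0.915 between *Id2* and *Tcf12* and -0.804 between *Id2* and *Tcf3*, but 0.288 between *Id2* and *Id3* and -0.019 between *Id3* and *Tcf3*. Among the 9914 genes that averaged 5 CPM or more, the genes most like *Id3* were *Vav1* (r = 0.941), *Nfu1* (0.940) and *Sema4d* (0.936). *Tmem120b* (0.982), *Htra2* (0.982) and *Dusp6* (0.979) were most like *Id2*, and *Manf* (0.957), *Timm8b* (0.955) and *Snrpd2* (0.953) most like *Id1*. *Tcf3* was nearest to *Crmp1* (0.986), *Phf19* (0.983) and *E2f2* (0.982), and *Tcf12* to *Zyg11b* (0.983), *March7* (0.982) and *Kdm2a* (0.979). The likeness of *Tcf4*, which had few counts, was lower (*Zfp667* 0.894, *Proser3* 0.834 and *Fbxw17* 0.823).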

How the data were processed

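RNA-seq of 16 samples was analysed, 4 in each of 4 groups. Poly(A)-selected libraries (NEBNext Ultra) were sequenced in paired-end mode on a NovaSeq instrument. The authors aligned the reads to GRCm38/mm10 with HISAT2 2.0.5, counted them per gene with featureCounts 1.5.0-p3, and deposited the counts without normalization. The deposited FPKM values were derived by the authors from gene length and count. The annotation release and the use of strand are not given in the sources used here.

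Counts were tested with edgeR 4.0.16 in R 4.3.3: filterByExpr (minimum count 10), TMM factors (0.880 to 1.09), glmQLFit and glmQLFTest, two-sided, with Benjamini-Hochberg adjustment over all genes tested. Pairwise fits held the 8 samples compared, and the interaction fit all 16. "Passed" means an adjusted p below 0.05, and DEG in addition at least 2-fold. The tests were checked on simulated counts. The 27 symbols altered to dates were restored by gene identifier. GENCODE M21 on the same build held 54409 of the 54532 identifiers, and the 6 genes had the same coordinates there.

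Replicate libraries differed by more than sampling noise (chi-square per degree of freedom 8.46 to 56.8). Deviations of same-numbered libraries from their group means correlated by 0.112 or more in 3 of the comparisons, and by 0.0439 or more for stimulation with PGE2. Between different numbers the correlations reached 0.250 in those 3 and 0.157 for stimulation with PGE2. The numbers were therefore taken as pairs in those 3, but only for the pair ratios and the replicate block. The main fits held no block, and calls given without mention of a block come from them.

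Members, lists and markers were written by hand with earlier results of these data known. Named list genes are the 2 largest rises and falls among DEGs of each list that averaged 1 CPM or more, and *Id4*, *Tcf7*, *Egr2*, *Usp1*, *Cbfa2t3*, *Zeb1* and *Zeb2* throughout. The 3 genes most like each member are named by Pearson's r over 16 samples, and cell type markers beside them. Alternatives were DESeq2 1.42.0, RLE and upper-quartile factors, 2 other filters, limma 3.58.1 on log2 FPKM with a pseudocount of 1 or 0.1 (genes averaging 1 FPKM or more), a block for replicate number, a joint fit of the 16 samples, and the omission of each library in turn. Division by median coding transcript length was chosen after seeing the data.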

Additional observations from a re-analysis of the deposited data

Results flagged for a closer look

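*Tcf3* in unstimulated PGE2 replicate 1 was at 178.9 CPM, apart from the other 3 libraries of its group, which held 158.5 to 158.7 CPM. It was the only one of 36 groups of 4 values examined in which 1 library stood this far from the others. Chance gives about 1 such group in 20, so that 1 in 36 is no more than chance gives. Some of the groups are ratios of the same genes and are not independent. *Klf2*, a gene of the ID3-side list, had a PGE2 effect that differed between stimulated and unstimulated cells. The interaction was 0.83 on the log2 scale (SE 0.178, edgeR adjusted p = 0.0391), with a PGE2 effect of 0.90 in stimulated and 0.087 in unstimulated cells. It was the only gene of the 6 lists that passed for the interaction. Without 1 library, no gene of that list passed in 11 of the 16 fits, which were those without unstimulated untreated replicate 1, 2 or 3, unstimulated PGE2 replicate 2, 3 or 4, stimulated untreated replicate 1, 2 or 3, or stimulated PGE2 replicate 2 or 3. In the fit without stimulated PGE2 replicate 4, 2 genes passed. No gene of that list passed with RLE factors or on either FPKM scale, 2 passed with DESeq2 and without a filter, and 4 with the replicate block.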

How the results depend on the processing

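The fall of *Id3* with PGE2 passed under all 17 alternatives in each setting, with log2 fold changes of -1.46 to -1.22 in stimulated and -1.21 to -0.93 in unstimulated cells (adjusted p at most 0.00219 and 0.00318). With a replicate block 4 of the 6 genes passed for PGE2 in stimulated cells; for stimulation with PGE2, where the numbers were not taken as pairs, *Tcf4* passed with it (adjusted p = 0.0454). The block changed no other call of the 6 genes than those given here and in the report. In unstimulated cells 0 to 1 of the 6 were DEGs with PGE2 when 1 library was left out. *Tcf3* did not pass there without a filter (adjusted p = 0.0543) or in 1 fit of all 16 samples (0.128). *Id3* passed for stimulation without PGE2 with DESeq2 (adjusted p = 0.0411), RLE factors (0.0483) and no filter (0.0115). DEGs among the 6 for stimulation without PGE2 numbered 2 with DESeq2 and RLE factors, 0 with at least 10 counts in every sample and on both FPKM scales, which left *Id1* untested, and 1 to 2 without 1 library. With PGE2 they numbered 1 with upper-quartile factors, with at least 10 counts in every sample and on both FPKM scales, and 1 to 2 without 1 library. Upper-quartile factors moved the median of all genes by -0.13 in that comparison, and *Id3* there went from 0.12 to -0.0054. Signs turned without 1 library for *Tcf3* with PGE2 in stimulated cells (-0.10 to 0.027 over the 8 libraries left out) and for the interactions of *Id2* (-0.0072 to 0.14) and *Tcf4* (-0.25 to 0.0999), none of which passed. Of the list genes named, *Egr2* with PGE2 in stimulated cells did not pass on either FPKM scale, *Egr3* in unstimulated cells not with DESeq2, and *Tcf7* in stimulated cells not in 1 fit of all 16 samples. Counts of list genes moved by over 1.5 times under some alternatives beside those in the report. For PGE2 in stimulated cells, ID3-side rises were 5 in 1 fit of all 16 samples, E-box rises 5 with DESeq2, E protein target rises 1 on both FPKM scales, and turnover genes 1 rise and 1 fall in 1 fit of all 16 samples. In unstimulated cells, upstream-signal rises were 3 on both FPKM scales and turnover falls 1 with upper-quartile factors or no filter and 5 with the replicate block. With stimulation, E-box rises were 2 on both FPKM scales without and with PGE2, and E-box falls with PGE2 were 6 there and with at least 10 counts in every sample. The ID to E ratio was 0.407, 0.279, 1.04 and 0.740 from counts without length and 0.817, 0.549, 2.05 and 1.46 with median coding transcripts, in the order unstimulated untreated, unstimulated PGE2, stimulated untreated and stimulated PGE2. Of the 3 genes most like *Id1* and *Tcf4*, 1 each was also found on log2(FPKM + 1). Counts of *Id1* and *Tcf4* limit what can be seen for them, and for the others the spread between replicates does.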
